A study of Mus musculus with 12 samples.

Results

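The 4 Fc gamma receptor genes (Fcgr1, Fcgr2b, Fcgr3, Fcgr4), the 3 chains of C1q (C1qa, C1qb, C1qc) and the receptors of the anaphylatoxins C3a and C5a (C3ar1, C5ar1) were followed in mouse bone marrow-derived macrophages (BMMs). These 9 genes were taken by symbol from the 24421 genes listed for each library, and all 9 passed the filters on low values. The 12 RNA-seq libraries fall into 6 conditions of 2 replicates, and carry 24951280 to 33050619 reads on genes. In the loss of function experiment, WT cells (genotype Mir182+/+ LysMcre(+)) and KO cells (Mir182flox/flox LysMcre(+)) were each studied without stimulation (basal) and after RANKL for 5 days. In the gain of function experiment, Control cells (LysMcre(+)) and mTg cells (LSL-Mir182 LysMcre(+)) were studied at baseline. All cells are labelled C57BL/6, all carry LysMcre, a Cre recombinase expressed from the lysozyme M promoter of myeloid cells, and all were grown from bone marrow with M-CSF for 3 days. The LSL-Mir182 allele needs that Cre to be switched on, so deletion and overexpression are both limited to cells in which the promoter is active. The ages and sexes of the mice, and how many were pooled, are not given in the labels.

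Fc gamma receptors bind the constant part of IgG and let macrophages and osteoclast precursors read immune complexes. Fcgr1, Fcgr3 and Fcgr4 encode activating receptors that signal through the common gamma chain Fcer1g and the kinase Syk, and Fcgr2b encodes the inhibitory receptor, which recruits phosphatases. C1q is the recognition molecule of the classical complement pathway, assembled from A, B and C chains and made largely by macrophages, and C3AR1 and C5AR1 are G protein-coupled receptors for the small fragments released when C3 and C5 are cleaved. RANKL is the cytokine that turns macrophage precursors into osteoclasts, and common gamma chain signaling is one of the costimulatory inputs of that step.

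The study asks what miR-182 does in this lineage, so its seed and the members' matches to it come first, shown with bases 2 to 8 in capitals (RefSeq, GRCm38, chr6:30165962-30165986, minus strand).
mmu-miR-182-5p: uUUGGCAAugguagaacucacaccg
The 2 matches searched, of 7 bases each, in the longest annotated 3′ UTR of each gene (GENCODE vM21) were TTGCCAA, which pairs with bases 2 to 8, and TGCCAAA, which pairs with bases 2 to 7 and ends in A. Of the 9 genes 1 held a match, C3ar1, at chr6:122849305-122849311 on the minus strand, shown in capitals in its 30-base surroundings.
C3ar1 site: acagaacacagTGCCAAAtgccacccacta
The same search found a match in 3689 of 21028 protein-coding genes (17.5%). A match is a description of these letters and not of binding. The other 8 genes, among them Fcgr1, had no match in 3′ UTRs of 160 to 2397 bases.

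The genes lie in 5 places of GRCm38. Fcgr2b (chr1:170958617-170976547, minus strand), Fcgr4 (chr1:171018920-171029761, plus strand) and Fcgr3 (chr1:171051174-171064935, minus strand) are neighbours, 42.4 and 21.4 kb apart, while Fcgr1 is on another chromosome (chr3:96282909-96293969, minus strand). C1qb (chr4:136880129-136886187), C1qc (chr4:136889804-136893065) and C1qa (chr4:136895917-136898803) follow each other on the minus strand with gaps of 3.62 and 2.85 kb. C3ar1 is at chr6:122847138-122856161 and C5ar1 at chr7:16246743-16259540, both on the minus strand, and C5ar2, the second C5a receptor gene, ends 2.59 kb from C5ar1. Fcgr2b and Fcgr3 share sequence: 166 of the 1733 distinct 50-base stretches in the annotated transcripts of Fcgr3 (9.58%) also occur in Fcgr2b transcripts, so their counts are uncertain where reads fall there. Fcgr1, Fcgr4, the C1q chains, C3ar1 and C5ar1 shared no 50-base stretch with another gene.

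Before any comparison, the WT RANKL libraries have to be set apart. Lyz2, the lysozyme M gene whose promoter drives the Cre, was at 44.0 and 39.8 CPM (reads scaled to the library total) in the WT basal libraries and at 4117 and 4288 CPM in the WT RANKL libraries. In KO cells Lyz2 was at 34.6 and 31.2 CPM basal and at 24.0 and 22.5 CPM after RANKL, whereas it stood between 5783 and 7062 CPM in the 4 Control and mTg libraries. Ifi202b, an interferon-inducible gene 2.9 Mb from Fcgr3 on chromosome 1, went the other way, with 112 and 93.4 CPM in WT basal, 1.12 and 0.97 CPM in WT RANKL, 82.1 to 152 CPM in the 4 KO libraries, and 0 to 0.09 CPM in Control and mTg. For these genes the WT RANKL libraries were thus nearer to the Control and mTg libraries than to their own basal group. A RANKL effect in WT, a KO effect after RANKL and their interaction cannot be told apart from whatever separates these libraries. The change of the members and of the other named genes after RANKL in WT is therefore given also against the Control basal libraries, a comparator chosen after seeing the data. For KO against WT after RANKL and for the interaction there was no such second comparator. The fold changes of KO RANKL against KO basal and of KO basal against WT basal do not use the WT RANKL libraries. Their p-values do in part, since these libraries enter the shared spread and the filter of the same fit.

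**Figure D1:**
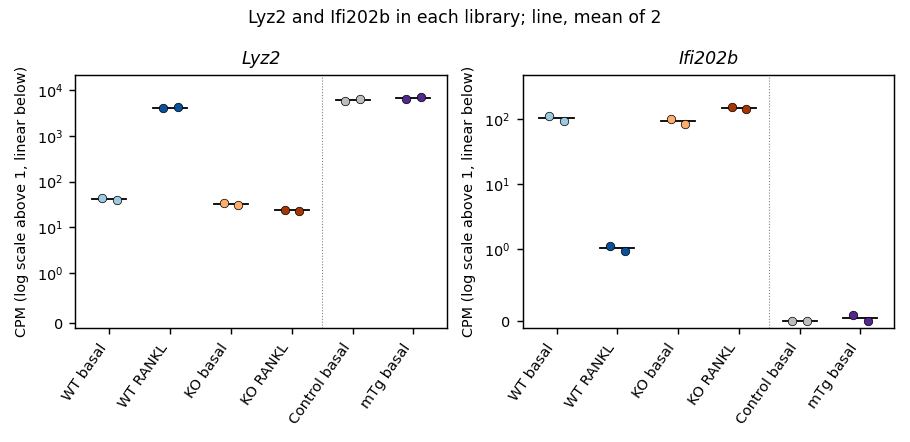
Lyz2 and Ifi202b in CPM (y axis, logarithmic above 1 and linear below) in the 12 libraries, by condition (x axis); points are libraries and lines the mean of 2 replicates. The WT RANKL libraries lie at 4117 and 4288 CPM of Lyz2 and near 1 CPM of Ifi202b, close to the Control and mTg libraries and far from WT basal.

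The labels of genotype and treatment were also checked. Reads on Mir182 were 2.39 and 4.40 CPM in the mTg libraries and 0 in the Control libraries, the direction of the transgene label, and at 0 or 1 read in the loss of function libraries, so that these data do not check the deletion. All 8 osteoclast markers rose after RANKL in both genotypes, and their summed level was 47.5 to 83.7 CPM in the 8 basal libraries, 9960 to 10300 CPM in WT RANKL and 3137 to 3144 CPM in KO RANKL. The summed level of 7 macrophage markers was 8566 to 8747 CPM in WT basal, 6139 to 6190 CPM in WT RANKL, 7634 to 7654 CPM in KO basal, 6215 to 6374 CPM in KO RANKL and 6486 to 6777 CPM in Control and mTg. In WT 6 of the 7 were called lower after RANKL, with Cd14 3.36-fold, Mertk 3.26-fold and Adgre1 1.87-fold lower. Spi1 was called 2.19-fold higher. Against Control basal, Cd14 (1.92-fold), Adgre1 (1.55-fold) and Mertk (1.497-fold) were lower in WT RANKL, and Spi1 was 1.74-fold higher (edgeR). Between KO and WT after RANKL, 2 of the 7 were called higher in KO and 2 lower, beside 14.3% and 30.9% of all genes. Cd14 and Adgre1 were 1.91-fold and 1.67-fold higher in KO than in WT, and Csf1r and Spi1 1.42-fold and 1.19-fold lower. Markers of mast cells and red cells summed to at most 0.24 CPM, those of B cells to at most 3.67 CPM, those of dendritic cells to at most 3.46 CPM, and those of T and NK cells to at most 16.7 CPM. Stromal and osteoblast markers summed to 1.63 to 22.2 CPM in basal libraries and to 16.0 to 36.6 CPM after RANKL, with replicate 2 above replicate 1 in each condition. After RANKL 1 of 5 tested was called higher in each genotype, beside 40.6% of all genes in WT and 30.5% in KO. With the replicate block 4 were called higher in WT and 5 in KO, beside 52.9% and 42.8%. The summed neutrophil markers went from 64.1 to 65.8 CPM in WT basal to 13.9 to 15.0 CPM in WT RANKL. In KO they went from 80.6 to 81.0 CPM to 4.73 to 5.63 CPM. In WT and in KO 6 of 6 tested were called lower after RANKL, beside 22% of all genes in WT and 26.3% in KO. The sum was 41.73 to 43.35 CPM in Control basal and 82.6 to 85.5 CPM in mTg basal. Between mTg and Control 0 of 6 were called. With the replicate block 6 were called higher in mTg, beside 6.97% of all genes. In bulk libraries fewer cells of a type and less RNA per cell cannot be told apart, and the part of these shifts in the results below was not tested.

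Levels between genes were compared per kilobase, with the gene lengths that the deposited CPM and RPKM values imply. In WT basal cells C1qb was highest, with a mean of 2139 CPM per kilobase, followed by C1qc at 1234, C1qa at 748 and Fcgr3 at 591. C3ar1 (286), C5ar1 (196) and Fcgr2b (162) came next on the same scale, and Fcgr1 (46.2) and Fcgr4 (40.4) were lowest. Each library held at least 363 reads for each member. The 2 experiments were deposited in different units (CPM and read counts), so levels set across them rest on scaling each library to its own total.

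**Figure D2:**
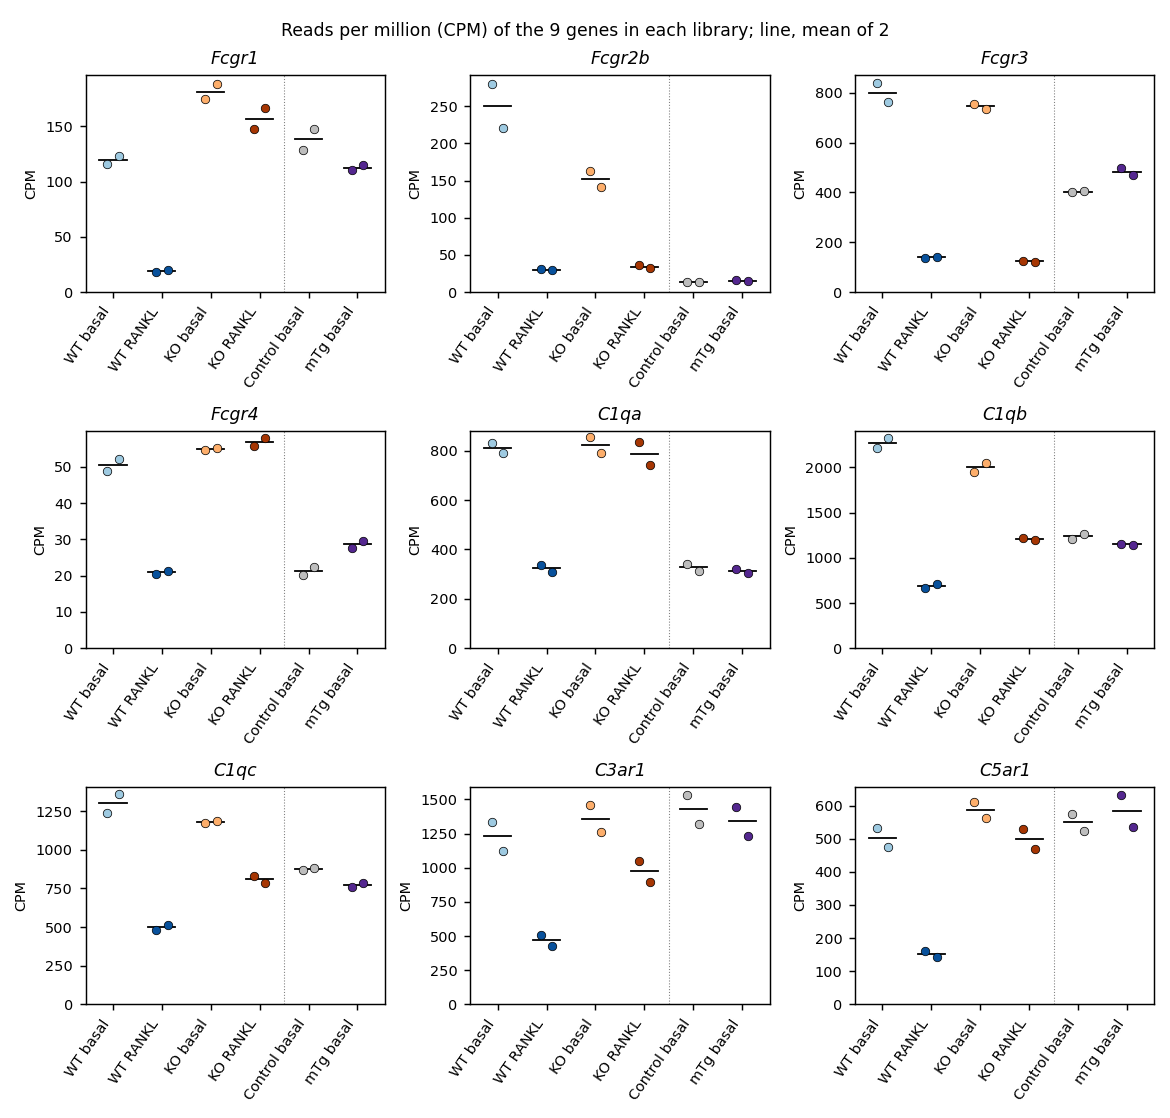
CPM of each of the 9 genes (y axes, linear, from 0) in each library by condition (x axes); points are libraries, lines are means of 2, and the dotted line separates the loss of function from the gain of function experiment. In every panel the WT RANKL points lie below the WT basal points, whereas the KO RANKL points overlap the range of the KO basal points for C1qa and lie above them for Fcgr4.

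Over the 6 conditions, the WT RANKL libraries were lowest for Fcgr1, C1qb, C1qc, C3ar1 and C5ar1, with no overlap with any other condition, which held for 7.14% of all genes tested. Fcgr3 was lowest in KO RANKL (126 and 121 CPM), just under WT RANKL (138 and 139.7 CPM). Fcgr2b was lowest in Control (14.1 and 13.7 CPM), next to mTg (15.7 and 14.9 CPM). For Fcgr4 the WT RANKL values lay within the range of the Control values, and for C1qa the WT RANKL, Control and mTg values overlapped between 306 and 340.5 CPM. KO basal and WT basal overlapped for C1qa and C3ar1, and were apart for the other 7 genes, as they were for 41.1% of all genes tested.

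After RANKL, WT cells held less RNA of all 9 genes than WT basal cells, and KO cells of 5 than KO basal cells. Against Control basal, 6 were lower and 1 was higher in WT RANKL (edgeR), beside 25.6% and 23.9% of all genes. In the fit over 11673 genes (limma on log2(CPM + 1), Benjamini-Hochberg adjusted p under 0.05), 9 of 9 members were called lower in WT RANKL than in WT basal, beside 22% of all genes called lower and 40.6% called higher. In KO cells, 5 of 9 were called lower, beside 26.3% of all genes lower and 30.5% higher. The members' median log2 change was -1.72 in WT and -0.48 in KO, where the median gene moved by 0.19 and 0.05. Both responses to RANKL are on the log2(CPM + 1) scale, with standard errors (SE) from a spread shared by the 4 groups. The paper describes its RNA-seq replicates as biological and independent, and the labels do not state whether they come from separate cultures. P-values therefore measure the spread between these libraries, which may be technical. Without the replicate number as a block, that spread includes the processing difference between replicates 1 and 2 described under processing. Over the 9 members the SE of the WT response ran from 0.0629 to 0.135, and from 0.0265 to 0.0499 with the block.

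The median gene shift of 0.19 in WT became -0.0049 once CPM were divided by TMM factors, and on that scale 28.8% of genes were called higher and 30.5% lower. Relative to the median gene, the members' decreases in WT were thus larger than printed, 1.42 for Fcgr4 to 3.19 for Fcgr2b on the log2 scale.

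Among the activating receptors, Fcgr1, the high-affinity IgG receptor (CD64), was at 116 and 123 CPM in WT basal and at 18.5 and 19.8 CPM in WT RANKL. It fell by 2.58 on the log2 scale in WT (SE 0.085, adjusted p = 5.46e-07, limma), which is 5.98-fold. In KO cells Fcgr1 went from 174 and 188 CPM to 148 and 167 CPM, a difference of -0.21 that missed the threshold (SE 0.085, adjusted p = 0.072, limma). The KO groups did not overlap: both RANKL values lay under both basal values. With the replicate number as a block this KO difference was called (adjusted p = 6.19e-05, limma), and so it was with TMM factors (adjusted p = 0.0418).

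Fcgr3, the low-affinity activating receptor and the most abundant of the 4, fell in both genotypes. Its CPM were 837 and 763 in WT basal and 138 and 139.7 in WT RANKL, a decrease of 5.72-fold (log2 -2.52, SE 0.065, adjusted p = 2.46e-07, limma). In KO cells they were 756 and 735 basal and 126 and 121 after RANKL, a decrease of 5.99-fold (log2 -2.58, SE 0.065, adjusted p = 2.94e-07, limma). No RANKL library came near a basal library in either genotype.

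Fcgr4, which binds IgG2 subclasses in the mouse, was at 48.7 and 52.2 CPM in WT basal and at 20.6 and 21.3 CPM in WT RANKL, 2.34-fold lower (log2 -1.23, SE 0.071, adjusted p = 7.13e-06, limma). In KO cells it was at 54.6 and 55.1 CPM basal and at 55.8 and 58.0 CPM after RANKL, a log2 difference of 0.052 (SE 0.071, adjusted p = 0.556, limma). The KO RANKL values were both above the KO basal values, by less than the error of the fit.

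Fcgr2b, the inhibitory receptor, had the largest fitted decrease of the 9 in WT. It went from 279 and 221 CPM to 31.0 and 29.3 CPM in WT, 8.02-fold lower (log2 -3.00, SE 0.128, adjusted p = 1.82e-06, limma). In KO cells it went from 162 and 141 CPM to 36.0 and 32.1 CPM, 4.34-fold lower (log2 -2.12, SE 0.128, adjusted p = 1.14e-05, limma). After RANKL both genotypes lay between 29.3 and 36.0 CPM, and the WT basal replicates differed from each other more than all 4 RANKL libraries did.

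All 3 C1q chains fell in WT, and C1qb and C1qc fell in KO. Differences between the chains were not tested. C1qa was at 831 and 789 CPM in WT basal, 337 and 309 CPM in WT RANKL, 853 and 791 CPM in KO basal, and 835 and 741 CPM in KO RANKL. It was 2.50-fold lower after RANKL in WT (adjusted p = 1.14e-05, limma), and in KO the log2 difference was -0.062 (SE 0.084, adjusted p = 0.554, limma). The KO RANKL and KO basal values of C1qa overlapped. Within replicates the KO difference was -0.031 and -0.093, and it was called with the replicate block and TMM factors (adjusted p = 0.0043, limma) and with the block in edgeR (adjusted p = 0.00155), but not with the block alone.

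C1qb was at 2219.9 and 2323 CPM in WT basal, 669 and 707 CPM in WT RANKL, 1954 and 2047 CPM in KO basal, and 1214 and 1202 CPM in KO RANKL. It fell 3.30-fold in WT (adjusted p = 8.85e-07, limma) and 1.66-fold in KO (log2 -0.73, SE 0.063, adjusted p = 6.56e-05, limma). The KO RANKL libraries stood between the WT RANKL and the basal libraries.

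C1qc was at 1239.6 and 1362 CPM in WT basal, 484 and 514 CPM in WT RANKL, 1170.4 and 1184 CPM in KO basal, and 833 and 784 CPM in KO RANKL. The decreases were 2.60-fold in WT (adjusted p = 4.32e-06, limma) and 1.46-fold in KO (log2 -0.54, SE 0.071, adjusted p = 0.000552, limma). As for C1qb, no KO RANKL library reached the KO basal range.

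C3ar1, the C3a receptor gene, was at 1336 and 1125 CPM in WT basal, 508 and 427 CPM in WT RANKL, 1459 and 1259.7 CPM in KO basal, and 1049 and 897 CPM in KO RANKL. Replicate 1 was higher than replicate 2 in each of these conditions. The decrease was 2.63-fold in WT (adjusted p = 9.62e-05, limma) and 1.40-fold in KO (log2 -0.48, SE 0.135, adjusted p = 0.0185, limma). The call in KO rested on single libraries: it was lost without KO basal replicate 1 (adjusted p = 0.105) and without KO RANKL replicate 2 (adjusted p = 0.108), both by limma.

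C5ar1, the C5a receptor gene, was at 532 and 475 CPM in WT basal and 161 and 144 CPM in WT RANKL, 3.29-fold lower (adjusted p = 6.27e-06, limma). In KO cells it was at 609.9 and 563 CPM basal and 528 and 469 CPM after RANKL, a log2 difference of -0.24 (SE 0.096, adjusted p = 0.0701, limma). Under the replicate block this difference was called (adjusted p = 1.89e-07, limma), as it was with TMM factors (adjusted p = 0.0391). Under the block 7 of 9 members were called lower in KO, beside 36.2% of all genes. The second C5a receptor gene, C5ar2, moved in opposite directions: it fell from 11.5 and 11.2 CPM to 5.35 and 5.07 CPM in WT and rose from 13.8 and 12.5 CPM to 18.6 and 20.3 CPM in KO (adjusted p = 8.85e-05 and 0.00236, limma). Against Control basal C5ar2 was 2.14-fold lower in WT RANKL (adjusted p = 1.64e-05, edgeR).

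Set against the Control basal libraries instead of WT basal, the WT RANKL libraries gave a different account of several members. By edgeR's quasi-likelihood test on the reads of all 12 libraries, 6 of 9 members were lower and 1 was higher in WT RANKL than in Control basal, beside 25.6% of all genes called lower and 23.9% called higher. Fcgr2b turned its direction: it was at 14.1 and 13.7 CPM in Control basal, under its 31.0 and 29.3 CPM in WT RANKL, 2.04-fold higher after RANKL (adjusted p = 0.000115, edgeR). Fcgr4 (20.2 and 22.4 CPM in Control basal) and C1qa (340.5 and 313 CPM) lay at the same levels as in WT RANKL, with log2 differences of -0.11 (SE 0.075, adjusted p = 0.273, edgeR) and -0.099 (SE 0.083, adjusted p = 0.357, edgeR). With the replicate block the difference of C1qa was called (adjusted p = 0.00441, edgeR).

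The other 6 members were lower with either comparator. Fcgr1 was at 129 and 147 CPM in Control basal, 7.63-fold above WT RANKL, and Fcgr3 at 400.3 and 406 CPM, 3.07-fold above. C5ar1 was 3.81-fold, C3ar1 3.24-fold, C1qb 1.91-fold and C1qc 1.86-fold lower in WT RANKL than in Control basal (adjusted p between 1.59e-08 and 1.1e-05 for the 6 genes, edgeR).

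**Figure D3:**
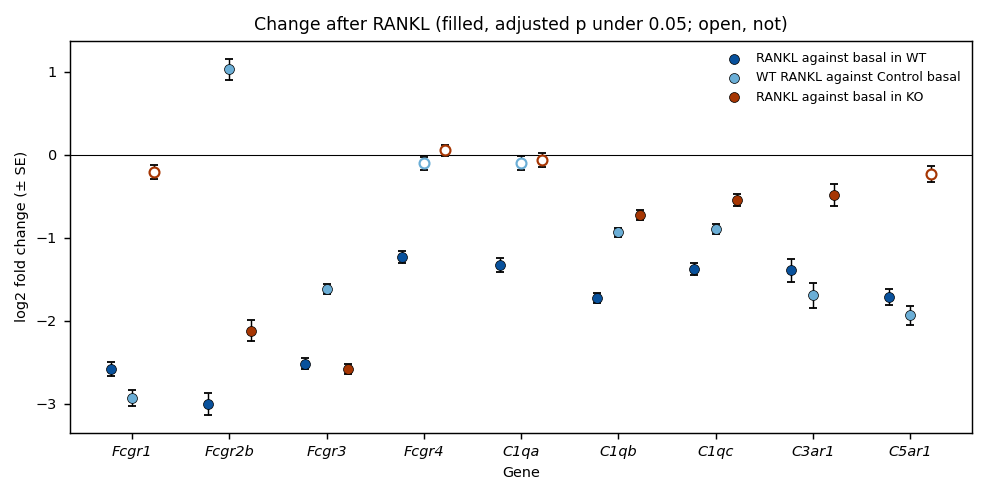
Fitted log2 fold change (y axis) of each gene (x axis) after RANKL in WT, in WT against the Control basal libraries, and in KO; bars are SE, filled points have an adjusted p under 0.05 and open points do not. Fcgr2b lies at -3.00 against WT basal and at 1.03 against Control basal, while Fcgr1 lies under -2.5 with either comparator and at -0.21 in KO.

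At baseline, KO and WT cells differed in both directions, by at most 1.64-fold in the fit. Of the 9 members 2 were called: Fcgr1 was higher in KO (174 and 188 against 116 and 123 CPM), 1.51-fold (log2 0.60, SE 0.085, adjusted p = 0.014, limma), and Fcgr2b was lower (162 and 141 against 279 and 221 CPM), 1.64-fold (log2 -0.71, SE 0.128, adjusted p = 0.0295, limma). Over all genes 2.72% were called higher and 1.11% lower. The groups did not overlap for either gene. The remaining 7 members differed by log2 values of -0.18 (C1qb) to 0.22 (C5ar1), with adjusted p from 0.207 to 0.961.

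These 2 calls depended on the libraries in the fit. Fcgr1 lost its call without WT basal replicate 1 (adjusted p = 0.0966), WT basal replicate 2 (0.0686), KO basal replicate 1 (0.072) or KO basal replicate 2 (0.117), all by limma. Fcgr2b lost its call without WT basal replicate 1 (adjusted p = 0.125), KO basal replicate 1 (0.104), KO basal replicate 2 (0.19), either WT RANKL library (0.0587 and 0.0584) or either KO RANKL library (0.0599 and 0.0596), and kept it without WT basal replicate 2. With the replicate block, 3 members were called higher (Fcgr1, C3ar1, C5ar1) and 4 lower (Fcgr2b, Fcgr3, C1qb, C1qc), beside 18.6% and 12.7% of all genes.

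After RANKL, KO cells held more RNA than WT cells of 7 of the 9 members, beside 14.3% of all genes called higher and 30.9% called lower. Fcgr1 differed most, with 148 and 167 CPM in KO RANKL and 18.5 and 19.8 CPM in WT RANKL, 7.83-fold (log2 2.97, SE 0.085, adjusted p = 1.14e-06, limma). C5ar1 (528 and 469 against 161 and 144 CPM) was 3.25-fold higher, Fcgr4 (55.8 and 58.0 against 20.6 and 21.3 CPM) 2.64-fold, C1qa (835 and 741 against 337 and 309 CPM) 2.43-fold and C3ar1 (1049 and 897 against 508 and 427 CPM) 2.08-fold. C1qb and C1qc were 1.76-fold and 1.62-fold higher, and the adjusted p of these 6 genes lay between 1.06e-05 and 0.000739 (limma). For each of the 7 genes both KO RANKL libraries lay above both WT RANKL libraries, as for 23.1% of all genes tested.

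Fcgr2b and Fcgr3 were not called in this comparison. Fcgr2b differed by a log2 value of 0.17 (SE 0.128, adjusted p = 0.314, limma), and Fcgr3 by -0.17 (SE 0.065, adjusted p = 0.0749, limma). With the replicate block both were called, Fcgr2b as higher (adjusted p = 0.00387) and Fcgr3 as lower (adjusted p = 0.000138, limma), which made 8 members higher and 1 lower, beside 23.4% and 49.8% of all genes. The median gene lay at -0.15 here and at -0.0035 with TMM factors, where 20.9% of genes were called higher and 20.2% lower. Relative to the median gene, Fcgr3 differed by -0.022. All of these differences include whatever sets the WT RANKL libraries apart in Lyz2 (4117 and 4288 against 24.0 and 22.5 CPM) and Ifi202b (1.12 and 0.97 against 152 and 143 CPM), and no other RANKL-treated libraries were there to compare with.

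By the test of the interaction, KO and WT cells responded unequally to RANKL in 8 of 9 members, beside 7.46% of all genes called higher and 17.2% called lower. The interaction was positive, that is, the decrease was smaller in KO, and ran from 0.84 (C1qc) to 2.37 (Fcgr1) on the log2 scale (adjusted p between 4.31e-05 and 0.013, limma). The exception was Fcgr3, at -0.066 (SE 0.092, adjusted p = 0.66, limma). The median gene lay at -0.15 in the interaction and at 0.0055 with TMM factors, where 10.6% of genes were called higher and 10.9% lower. The interaction rests on the WT RANKL libraries, with the same limit.

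In the gain of function experiment none of the 9 members passed the test between mTg and Control (edgeR's quasi-likelihood test, 12063 genes), beside 0.0995% of all genes called higher and 0.158% called lower. Of the 9, 4 had an unadjusted p under 0.05, and the same count of 0 calls was given by DESeq2. Fcgr4 was at 27.7 and 29.5 CPM in mTg and at 20.2 and 22.4 CPM in Control (log2 0.41, SE 0.101, adjusted p = 0.367, edgeR), and Fcgr3 at 497 and 468 against 400.3 and 406 CPM (log2 0.25, SE 0.071, adjusted p = 0.46, edgeR). Fcgr1 was at 110 and 115 against 129 and 147 CPM (log2 -0.31, SE 0.094, adjusted p = 0.513, edgeR) and C1qc at 758 and 786 against 868 and 881 CPM (log2 -0.19, SE 0.066, adjusted p = 0.611, edgeR). For these 4 genes, and for Fcgr2b and C1qb below, the groups did not overlap, which held for 32.2% of all genes tested.

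Fcgr2b (15.7 and 14.9 against 14.1 and 13.7 CPM), C1qa (322 and 306 against 340.5 and 313 CPM), C1qb (1155 and 1145 against 1213 and 1269 CPM), C3ar1 (1447 and 1229.9 against 1536 and 1322 CPM) and C5ar1 (632 and 534 against 575 and 523 CPM) differed by log2 values of -0.12 to 0.13. With the replicate block 2 members were called higher in mTg (Fcgr3, Fcgr4) and 4 lower (Fcgr1, C1qb, C1qc, C3ar1), with adjusted p between 3.49e-05 and 0.0117 (edgeR), beside 6.97% and 8.24% of all genes.

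**Figure D4:**
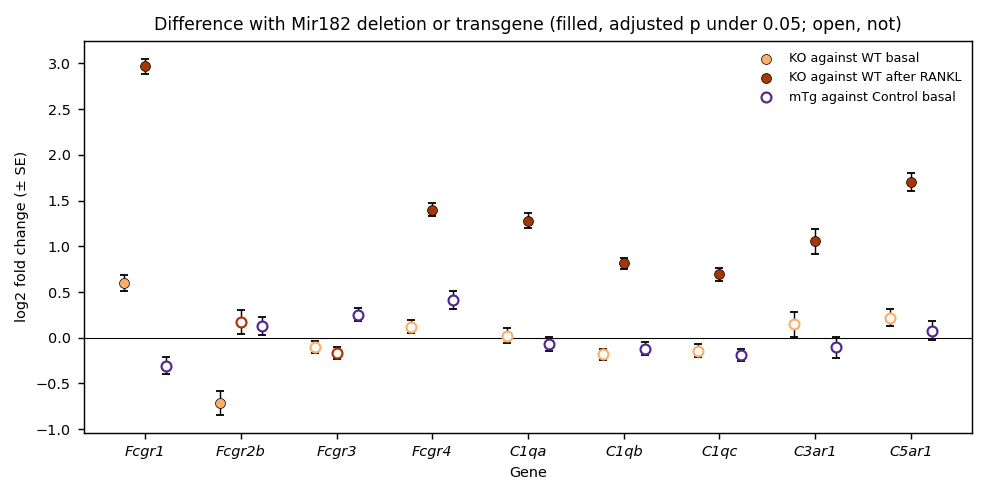
Fitted log2 difference (y axis) of each gene (x axis) between KO and WT at baseline, between KO and WT after RANKL, and between mTg and Control at baseline; bars are SE, filled points have an adjusted p under 0.05 and open points do not. The differences after RANKL reach 2.97 for Fcgr1, the baseline differences of KO stay between -0.71 and 0.60, and the mTg points are all open.

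The make-up of the receptor set was described from levels per kilobase, without a test. Fcgr3 made up 70.0% to 72.3% of the summed level of the 4 receptors in WT basal, KO basal and WT RANKL, 78.2% to 83.1% in Control and mTg, and 42.7% and 40.5% in KO RANKL. Fcgr1 made up 26.1% and 29.1% in KO RANKL and 4.9% to 14.8% elsewhere, and Fcgr4 20.5% and 21.0% in KO RANKL and 4.35% to 11.6% elsewhere. KO RANKL cells thus stood apart from the other 5 conditions in this make-up. The part in it of whatever separates the libraries in Lyz2 was not tested.

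The ratio of the 3 activating receptors to Fcgr2b was 3.89 and 4.57 in WT basal, 6.28 and 6.75 in WT RANKL, 6.38 and 7.26 in KO basal, and 8.36 and 9.64 in KO RANKL. In Control it was 39.6 and 42.2 and in mTg 42.5 and 43.0. Control basal and WT basal cells carry the same Cre and had the same culture by the labels. Their Lyz2 levels were nonetheless 5783 and 6615 against 44.0 and 39.8 CPM. Their Fcgr2b levels were 14.1 and 13.7 against 279 and 221 CPM, and what separates these groups was not tested. Among the C1q chains, the ratio of C1qb to C1qa was 2.72 and 3.00 in WT basal, 2.02 and 2.33 in WT RANKL, 2.33 and 2.64 in KO basal, 1.48 and 1.65 in KO RANKL, and 3.63 to 4.13 in Control and mTg. C1qb to C1qc ran from 1.37 to 1.78 over the 12 libraries.

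**Figure D5:**
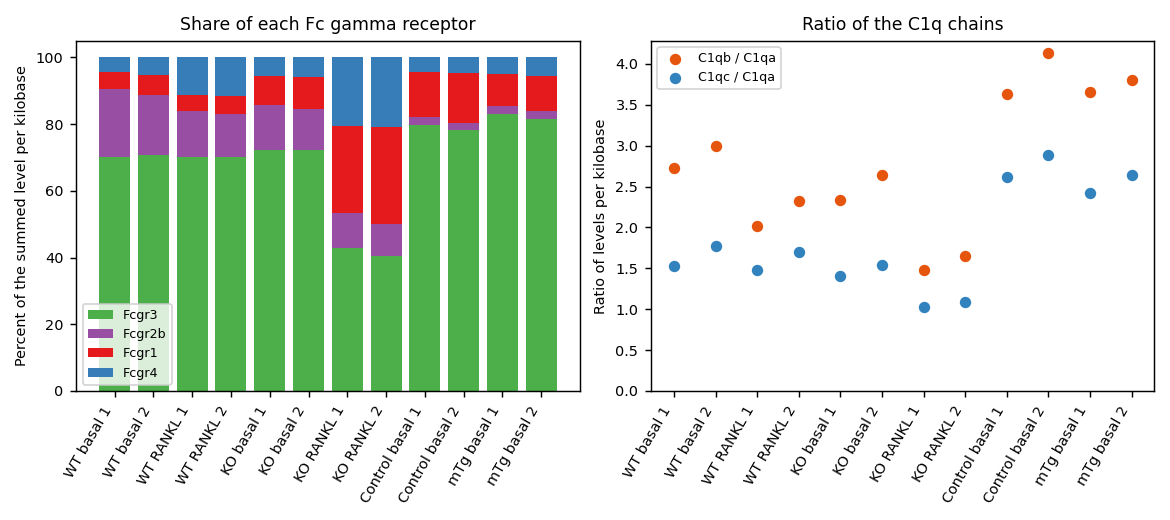
Left, share (percent) of each of the 4 Fc gamma receptor genes in their summed level per kilobase in each library; right, ratio of C1qb and of C1qc to C1qa per kilobase in each library. In the KO RANKL bars Fcgr1 and Fcgr4 take 26.1% and 20.5% in replicate 1, and the C1qb ratio is lowest there, at 1.48 and 1.65.

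The promoters of 3 of the receptors are shown: Fcgr1 and Fcgr4, which differed between KO and WT after RANKL, and Fcgr3, which was not called without the replicate block. The other members, described below, do not all follow this split. Each run is the stretch nearest to the RefSeq start site that no annotated exon covers (GRCm38), with motif matches in capitals.
Fcgr1 (chr3:96293970-96294089, minus strand): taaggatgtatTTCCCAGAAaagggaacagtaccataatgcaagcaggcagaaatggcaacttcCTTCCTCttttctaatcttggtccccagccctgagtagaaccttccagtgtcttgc
Fcgr4 (chr1:171018800-171018919, plus strand): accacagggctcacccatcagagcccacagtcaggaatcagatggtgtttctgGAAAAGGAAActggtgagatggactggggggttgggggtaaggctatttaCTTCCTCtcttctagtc
Fcgr3 (chr1:171059404-171059523, minus strand): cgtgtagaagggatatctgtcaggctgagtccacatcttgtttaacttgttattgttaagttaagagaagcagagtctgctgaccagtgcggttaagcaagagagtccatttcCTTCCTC

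The 5 motifs were searched on both strands in the 250 bases before each start site, for the 8 members with a RefSeq entry (none was given for C1qa). The interferon gamma activated form TTCNNNGAA matched in Fcgr1, 109 to 101 bases before the start, and in 7.02% of 32851 promoters. The interferon-stimulated form, GAAA and GAAA with 2 free bases between them, matched in Fcgr4, 73 to 64 bases before the start, and in 2.98% of promoters. The PU.1 form GAGGAAG, read as CTTCCTC on the other strand, matched in Fcgr1, Fcgr3, Fcgr4 and C1qc, and in 10.6% of promoters. The ETS and IRF composite, GGAA and GAAA with 2 free bases between them, matched in Fcgr2b (2.3% of promoters) and the AP-1 form TGANTCA in C3ar1 (6.75%). C1qb and C5ar1 held none of the 5 in this window, though both were called higher in KO than in WT after RANKL. Fcgr2b, with its match, was not called there without the replicate block. A link between the motifs and these differences was not tested. These matches describe the letters of the window and not the binding of a factor.

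Downstream of the activating receptors, 16 of 18 tested genes of a list of Fc receptor signaling and other Fc receptor genes were called after RANKL in each genotype, 5 higher and 11 lower in WT (beside 40.6% and 22% of all genes) and 6 higher and 10 lower in KO (beside 30.5% and 26.3%). With the replicate block 6 were higher and 12 lower in WT, beside 52.9% and 28.9% of all genes. In KO 7 were higher and 10 lower with the block, beside 42.8% and 36.2%. The median log2 change of the 18 genes was -0.29 in WT and -0.26 in KO. Fcer1g, the common gamma chain, was at 844 and 724 CPM in WT basal and at 435 and 389 CPM in WT RANKL, a 1.90-fold decrease (adjusted p = 0.000454, limma). The kinase genes Src and Fgr rose: Src from 1.19 and 0.84 to 289 and 301.5 CPM in WT and from 0.89 and 0.82 to 78.8 and 79.5 CPM in KO, and Fgr from 3.46 and 2.61 to 91.0 and 89.1 CPM in WT and from 2.92 and 3.47 to 154 and 147.5 CPM in KO. Ptpn6, which encodes the phosphatase SHP-1, was 1.71-fold higher in WT and 1.69-fold higher in KO after RANKL.

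Of the other Fc receptor genes, Fcrls and Fcgrt fell in both genotypes. Fcrls, an Fc receptor-like gene of macrophages, went from 239.5 and 286 to 24.6 and 27.0 CPM in WT and from 157 and 184 to 17.2 and 20.7 CPM in KO. Fcgrt, the neonatal Fc receptor, was 2.78-fold lower in WT and 3.39-fold lower in KO. Fcrl1, another Fc receptor-like gene, and Trim21, a cytosolic IgG receptor, were lower in WT (1.18-fold and 1.67-fold) and higher in KO (1.49-fold and 1.15-fold) after RANKL (adjusted p between 5.43e-05 and 0.0335, limma). Against Control basal, Fcrls (3.85-fold lower), Fcer1g (1.93-fold lower), Src (120-fold higher), Fgr (8.51-fold higher), Ptpn6 (1.68-fold higher) and Trim21 (1.39-fold lower) kept their direction in WT RANKL, Fcrl1 turned to 2.50-fold higher, and Fcgrt was not called (log2 -0.16, adjusted p = 0.591, edgeR). In that comparison 6 of the 18 genes were higher and 10 lower, beside 23.9% and 25.6% of all genes. Between KO and WT after RANKL, 5 of the 18 genes were higher and 7 lower, beside 14.3% and 30.9% of all genes. With the replicate block 5 were higher and 10 lower, beside 23.4% and 49.8%. Syk, the kinase used by the activating receptors, was at 341 and 322 CPM in KO RANKL and 667 and 628.5 CPM in WT RANKL, 1.95-fold lower (adjusted p = 5.56e-05, limma). At baseline 0 of the 18 genes were called between KO and WT by limma, and 0 of 18 between mTg and Control by edgeR. These counts became, under the replicate block, 3 higher and 6 lower in KO, beside 18.6% and 12.7% of all genes. In mTg they became 3 higher and 1 lower, beside 6.97% and 8.24%.

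Of 20 complement component genes, 6 were expressed enough to be tested in the loss of function fit. C3, the central component, was at 26.3 and 23.5 CPM in WT basal and at 506 and 456 CPM in WT RANKL, an 18.6-fold rise (adjusted p = 1.26e-07, limma). In KO it rose from 20.1 and 18.3 to 1291 and 1264 CPM, 63.5-fold (adjusted p = 1.1e-07, limma). Cfb, factor B of the alternative pathway, rose from 2.78 and 2.76 to 42.1 and 47.5 CPM in KO, 12.1-fold. In WT it rose at low levels, from 1.83 and 1.68 to 3.67 and 3.56 CPM, 1.67-fold (adjusted p = 0.000456, limma). In Control basal Cfb was at 0.83 and 0.76 CPM. Cfp, properdin, was 1.90-fold higher after RANKL in KO. Between KO and WT after RANKL 4 of the 6 genes were higher and 0 lower (beside 14.3% and 30.9% of all genes), with Cfb 9.91-fold, C3 2.66-fold and Cfp 1.42-fold higher in KO. The C3 of Control basal was 14.4 and 13.0 CPM, 33.1-fold under WT RANKL by edgeR. Under the replicate block 5 of the 6 genes were higher after RANKL in KO, beside 42.8% of all genes (3 without it, beside 30.5%). In WT 3 were higher and 1 lower under the block, beside 52.9% and 28.9% of all genes. Without it the WT counts were 2 and 0, beside 40.6% and 22%.

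Of 12 tested complement receptors and regulators, 4 were higher and 5 lower after RANKL in WT (beside 40.6% and 22% of all genes), and 7 higher and 4 lower in KO (beside 30.5% and 26.3%). Under the replicate block 7 were higher and 5 lower in WT, beside 52.9% and 28.9% of all genes. At baseline 3 were higher and 3 lower in KO than in WT under the block, beside 18.6% and 12.7% of all genes. Without it the counts were 0 and 1, beside 2.72% and 1.11%. Cd55, which speeds the decay of C3 convertases, rose from 0.21 and 0.12 to 17.0 and 13.6 CPM in WT and from 0.11 and 0.22 to 52.2 and 46.2 CPM in KO. Cd93, a surface protein once described as a C1q receptor, fell from 1608 and 1501 to 353 and 329.7 CPM in WT and from 1601 and 1520 to 441 and 421 CPM in KO. Lrp1, a scavenger receptor reported to bind C1q, fell from 3520 and 3977 to 1542 and 1666 CPM in WT and from 4324 and 4834 to 2892 and 3117 CPM in KO. Against Control basal, Cd55 was 23.7-fold higher, and Cd93 3.21-fold and Lrp1 3.43-fold lower in WT RANKL, the direction seen against WT basal. In that comparison 5 of 15 tested genes of the list were higher and 6 lower, beside 23.9% and 25.6% of all genes. Of the 12, 6 were higher and 0 lower in KO RANKL than in WT RANKL, beside 14.3% and 30.9% of all genes. With the replicate block these counts were 7 and 2, beside 23.4% and 49.8%. Of the 12 genes, 0 passed the test between mTg and Control. With the block 2 were higher and 3 lower, beside 6.97% and 8.24% of all genes.

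The genes whose levels followed each member most closely were read from the correlation of log2(CPM + 1) over the 12 libraries, among 10290 genes at 5 CPM or more in at least 1 condition. The 12 points are 2 replicates of each condition and are not independent, so these values of r are a description. Fcgr1 was followed by Smpdl3b (r = 0.974), Qpctl (0.973) and Plk2 (0.967), and among members by C5ar1 (0.956). Fcgr2b was followed by Adi1, Samd4 and Tns1 (0.990 to 0.989), and Fcgr3 by Mr1, Fdft1 and Gpx3 (0.995 to 0.993). Fcgr4 was followed by Gdf3 (0.983), Bloc1s6 (0.975) and Cd40 (0.968).

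C1qa was followed by Ifi202b (r = 0.988), Msl3 (0.988) and Apoe (0.981), so that the gene nearest to C1qa in pattern is one of the genes that set the WT RANKL, Control and mTg libraries apart. C1qb and C1qc had the same 3 genes, Lamp1, Mfhas1 and Mpeg1 (0.981 to 0.993), and each other as nearest member (0.993). C3ar1 was followed by Cap1, Eid1 and Tmem171 (0.986 to 0.983) and C5ar1 by Tmem171, Cd180 and Gla (0.979 to 0.973), and these receptors were each other's nearest member (0.968).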

How the data were processed

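RNA-seq of BMMs was made with libraries whose extraction text describes poly-A selection. The submitters' processing notes name TopHat and Cufflinks for replicate 1 and HISAT2, HTSeq and edgeR for replicate 2, with mm10 (GRCm38). Yet the molecule is labelled polyA RNA in replicate 1 and total RNA in replicate 2, and ribosomal Rn45s was 10.8 to 18.8 times higher in replicate 2, so the replicate number is also a processing difference. The authors deposited CPM per gene for the 8 loss of function libraries and read counts for the 4 gain of function libraries, and RPKM in the replicate 1 files. The deposited RPKM served only to derive gene lengths. The CPM were whole multiples of 1 read in 100.0% of values (tolerance 0.05 read), and reads were recovered from them. There were 27 rows whose names differed between files, which counted in library totals and were left out of tests.

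Loss of function CPM were tested with limma 3.58.1 (lmFit, eBayes with a trend) on log2(CPM + 1), keeping genes that reached 1 CPM in 2 or more of the 8 libraries, all 4 groups in one fit. Gain of function counts, and the reads of all 12 libraries for WT RANKL against Control basal, were tested with edgeR 4.0.16 (TMM, filterByExpr, glmQLFit, glmQLFTest). P-values were adjusted by Benjamini-Hochberg over all genes tested, with 0.05 as the threshold. In limma the pseudocount of 1 makes the fold change of low genes too small. On simulated data, limma recovered 200 of 200 genes changed by a log2 value of 1 in the KO RANKL contrast with 9.5% false calls, and edgeR 200 of 200 in the mTg contrast with 2.91% false calls. The 9.5% exceeded the rate that the threshold of 0.05 aims at. Simulated replicates shared the same means, without the processing difference between replicates 1 and 2. The simulation therefore checks the code and does not give recovery or error rates for these libraries.

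Same-numbered replicates deviated together from their group means (r from 0.677 to 0.741 over 15 pairs of conditions), so the numbers pair the samples. The fit with the replicate block alone is given for each member call that it changes. For the lists it is given for part of the counts only, and it changed others too. Replicates of a condition differed by more than sampling noise (mean chi-square per gene of 38.9 to 72.2), so each counted as 1 sample. The named genes are the 9 members, and of the other lists genes past the test with the largest changes, at most 8 per list, at 5 CPM or more in the higher group. The members and lists were chosen with earlier results of these data known. Alternatives were pseudocount, filter, TMM or quantile scaling, edgeR or DESeq2 1.42.0, the replicate block and leaving out each library.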

Additional observations from a re-analysis of the deposited data

Results flagged for a closer look

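The change after RANKL differed between the genotypes, by limma's test of the interaction over all genes, for 8 of the 9 genes. The log2 difference of the 2 responses (KO minus WT) was 2.37 for Fcgr1, 1.48 for C5ar1, 1.28 for Fcgr4, 1.26 for C1qa, 0.995 for C1qb, 0.911 for C3ar1, 0.885 for Fcgr2b and 0.837 for C1qc. All 8 were positive in both replicates. All rest on the WT RANKL libraries, in which Lyz2 was at 4117 and 4288 CPM, against 44.0 and 39.8 CPM in WT basal and 24.0 and 22.5 CPM in KO RANKL. The part of that difference in these values was not tested. Conditions of 2 libraries are too small for a check of single outlying libraries.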

How the results depend on the processing

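Counts of called members are given against those reported, by setting. The count in WT after RANKL was 9 lower under each alternative that kept WT basal as comparator, and the count in the interaction 8 higher under each alternative. Between KO and WT at baseline (1 higher, 1 lower), 0 were lower with no filter on low values, and 0 were called either way in a fit of only the 4 samples of the contrast. Leaving out 1 library gave 0 to 1 higher and 0 to 1 lower. With the replicate block, the block with TMM factors, and edgeR on recovered reads with the block, 3 were higher and 4 lower. In KO after RANKL, 8 were lower with the block and TMM factors and with the block in edgeR. After RANKL, the block made 1 lower between KO and WT (0 reported). Between mTg and Control, the block made 2 higher and 4 lower. With Control basal as the comparator of WT RANKL, with or without the block, 1 member was higher, Fcgr2b, reversed to a log2 change of 1.03 and 1.04. Among the members, the block alone changed no other call than those named beside the results, and in the pathway lists it removed 0 calls and added some.

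Among values not called, signs turned for Fcgr3 in the interaction (0.102 with TMM factors and with the block and TMM factors, 0.104 and 0.103 in edgeR without and with the block, and -0.132 to 0.000706 over the leave-one-out fits, turning without WT basal replicate 2), for C1qa between KO and WT at baseline (-0.0338 to 0.0759 over the leave-one-out fits, with -0.0161 without WT basal replicate 2 and -0.0338 without KO basal replicate 1) and in KO after RANKL (-0.147 to 0.0235, the latter without KO RANKL replicate 2), for C3ar1 in mTg (-0.231 to 0.0112, with 0.00441 without Control replicate 1 and 0.0112 without mTg replicate 2) and for C5ar1 in mTg (-0.053 to 0.196, the former without mTg replicate 1). A lone library left in a group was assumed to vary like the others. The cause of these changes was not tested. With 2 libraries per condition, and replicates that differ in their processing, small differences are the least certain.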
